A study of Mus musculus with 8 samples.

Results

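Organic anion and drug transporters are the membrane proteins that carry bile salts, conjugates, drugs and small acids into and out of liver cells. The genes described here are 9 of the 35975 mouse genes to which the deposited transcripts were assigned, chosen by name, with all transcripts of each gene summed: Slco1b2, Slco1a1, Slco1a4, Slco2b1, Slc22a7, Slc16a1, Abcc2, Abcg2 and Abcb1a. All 9 were among the 12883 genes with enough counts to be tested. RNA was sequenced from the livers of C57BL/6 mice (C57BL/6J in the study's methods) that received either normal saline (NS, 4 mice) or 4-hydroxyphenylacetic acid (4-HPAA, 4 mice), a phenolic acid made by gut microbes, into the portal vein for 2 weeks. 4-HPAA was dissolved in saline at 55 mM in a pump implanted under the skin. Every mouse of both groups thus carried a portal vein cannula and a pump, and mice were housed singly after surgery, so the comparison is of the compound and not of the operation. The study bought male and female mice aged 8 to 10 weeks, and the labels do not give the sex or age of the sequenced animals.

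Blood-borne organic anions enter hepatocytes across the sinusoidal membrane through organic anion transporting polypeptides (the Slco genes), Slc22 carriers and monocarboxylate carriers. Inside the cell many are joined to glucuronic acid or sulfate, and ATP-driven pumps (the Abc genes) then move the products across the canalicular membrane into bile. Several of these genes are known to be set by sex hormones and growth hormone in mouse liver and to respond to xenobiotic-sensing nuclear receptors. For 4-HPAA, a small acid that is conjugated in the liver, the comparison asks whether the RNA of such carriers differed after continuous delivery.

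Each library held between 29559978 and 30673398 estimated counts. Levels are given as CPM, the count of a gene scaled to a common library size with TMM factors, and differences as log2 fold changes of 4-HPAA over NS from the quasi-likelihood F test of edgeR, with p-values adjusted by the Benjamini-Hochberg method over all 12883 genes. At this depth the least abundant of the 9 genes, Abcb1a, had at least 124 counts in each liver, so the number of counts was not the main limit on precision for any of the 9. The uncertainty of assigning reads to genes and transcripts was not measured. The p-values measure the spread between the 4 samples of a group. The labels number those samples without saying whether the mice shared cages before surgery or were handled on separate days. The tissue label fits the marker levels: 8 hepatocyte marker genes together held between 109317 and 140317 CPM, bile duct markers at most 45.6 CPM and exocrine pancreas genes at most 1.07 CPM, with Pnlip and Prss2 at 0 in every library. In whole liver, fewer cells of a type and less RNA per cell cannot be told apart.

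Livers from 3 mice stood apart from the other 5 across both groups. NS replicate 1, NS replicate 4 and 4-HPAA replicate 4 had 1219, 1931 and 1581 CPM of Mup7, a major urinary protein gene that is higher in male liver, against 12599 to 18284 CPM in the others. Mup7 carried most of a list of 11 genes known to be higher in male liver, which summed to 6288, 8890.3 and 11576 CPM in these 3 livers and to between 20020.0 and 25222 CPM in the other 5. The sum of the other 10 genes of the list did not follow it. Without Mup7 they summed to 5069 CPM in NS replicate 1, the lowest, and to 9996 CPM in 4-HPAA replicate 4, the highest. NS replicate 4 was at 6960 CPM and the other 5 at 6938 to 8743 CPM. Mup20 made up most of this sum, at 3625, 4971 and 7366 CPM in the 3 livers and 3982 to 5355 CPM in the rest. Cyp2d9 was lowest in the same 3 livers as Mup7, at 699.9, 585 and 1014 CPM against 1156 to 1286 CPM. So was Cyp7b1, at 67.2, 130.5 and 128 CPM against 163 to 237 CPM. None of the remaining genes of the list was lowest in all 3. A list of 12 genes known to be higher in female liver summed to 124, 346 and 67.2 CPM in the 3 livers and to 23 to 44.7 CPM in the rest, but this too rested in part on 1 gene, the steroid hydroxylase Cyp2a4. Without Cyp2a4 the female list was at 95.8 CPM in NS replicate 1 and 70.7 CPM in NS replicate 4, while 4-HPAA replicate 4, at 34.9 CPM, lay within the range of the other 5, 22 to 43.4 CPM. Cyp2a4 itself read 28.2, 275 and 32.3 CPM in the 3 livers and 0.558 to 3.56 CPM in the others. Whether reads of Mup7 or Cyp2a4 could be split with related genes was not examined. Genes of the Y chromosome were expressed at a similar level throughout, the sum of Ddx3y, Eif2s3y, Kdm5d and Uty lying between 152 and 179.8 CPM in the 8 livers. By these genes, all 8 livers came from males. Markers of other cell types moved with some of these livers: 9 Kupffer cell and leukocyte genes summed to 92.3, 78.6 and 70.5 CPM in the 3 against 113 to 255 CPM in the other 5. In the replicates 4 of NS and 4-HPAA, 7 stellate cell genes summed to 110.5 and 120.4 CPM against 141 to 202 CPM, and 7 endothelial genes to 111 and 109 CPM against 142 to 185 CPM. The part of these cells in the transporter values was not tested. Red blood cell genes were also uneven, at 2586 CPM in NS replicate 2 and 738 CPM in 4-HPAA replicate 4 against 156 to 380.0 CPM in the rest. These livers fall in both groups, so the values of the 9 members are also given without the 3 that stood apart, a choice made after the data were seen.

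Sequence upstream of the start site is shown for 5 of the genes as a description. Slco1b2, Slco1a1 and Slco1a4 lie in the same stretch of chromosome 6, and in Abcg2 and Slco2b1 a single start among several carried nearly all counts. Any part of these sequences in the RNA values was not tested. Each window holds the 250 bases before the start (RefSeq, GRCm38.p6), 5′ to 3′ on the strand of the gene. Capitals mark matches, on either strand, to 6 short motifs that were searched: TATAAA (the TATA box, found in 12.4% of all 32841 windows of this length), CCAAT (33.9%), GCGTG (the core of the Ah receptor element, 28.2%), TGACNNNGC (the core of the antioxidant response element, 10.2%), AGGTCA (the hexamer of nuclear receptor elements, 14%) and GTTAAT (part of the HNF1 element, 6.43%). The Slco1b2 window is chr6:141629268-141629517 on the plus strand, that of Slco1a1 chr6:141946963-141947212 and that of Slco1a4 chr6:141856221-141856470, both on the minus strand. The Abcg2 window is chr6:58640296-58640545 on the plus strand and that of Slco2b1 chr7:99695810-99696059 on the minus strand.
Slco1b2: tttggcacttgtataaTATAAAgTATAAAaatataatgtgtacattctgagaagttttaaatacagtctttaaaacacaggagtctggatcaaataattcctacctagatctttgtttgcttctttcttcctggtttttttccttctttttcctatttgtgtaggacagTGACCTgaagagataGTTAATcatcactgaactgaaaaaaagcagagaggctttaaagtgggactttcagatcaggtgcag
Slco1a1: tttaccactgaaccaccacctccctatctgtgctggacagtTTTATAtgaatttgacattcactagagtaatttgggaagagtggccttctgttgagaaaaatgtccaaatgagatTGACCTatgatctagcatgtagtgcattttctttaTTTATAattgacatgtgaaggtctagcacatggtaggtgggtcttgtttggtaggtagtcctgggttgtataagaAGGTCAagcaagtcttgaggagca
Slco1a4: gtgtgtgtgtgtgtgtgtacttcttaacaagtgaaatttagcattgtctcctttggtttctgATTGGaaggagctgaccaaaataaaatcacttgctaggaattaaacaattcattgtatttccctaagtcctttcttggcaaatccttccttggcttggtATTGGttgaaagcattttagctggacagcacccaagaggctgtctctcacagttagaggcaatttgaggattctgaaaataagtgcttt
Abcg2: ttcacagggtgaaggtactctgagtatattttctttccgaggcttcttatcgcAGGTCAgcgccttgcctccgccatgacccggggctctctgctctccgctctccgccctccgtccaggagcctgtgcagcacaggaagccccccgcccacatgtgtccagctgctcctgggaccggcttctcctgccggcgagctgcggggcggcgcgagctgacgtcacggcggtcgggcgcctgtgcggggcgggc
Slco2b1: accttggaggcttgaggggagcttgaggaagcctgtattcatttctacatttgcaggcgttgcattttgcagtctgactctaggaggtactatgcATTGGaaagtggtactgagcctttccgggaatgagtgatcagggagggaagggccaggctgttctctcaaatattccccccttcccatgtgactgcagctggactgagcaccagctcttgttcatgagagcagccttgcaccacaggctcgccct
Counted from the start, with -1 as the base just before it, the Slco1b2 window held TATAAA at -234 and -227, AGGTCA at -81 and GTTAAT at -66. The Slco1a1 window held TATAAA at -209 and -99 and AGGTCA at -134 and -24. In Slco1a4 neither was found, and CCAAT matched at -188 and -89. The Abcg2 window had AGGTCA at -197 and the Slco2b1 window CCAAT at -155. None of the 5 windows held GCGTG or TGACNNNGC. A match is a run of letters only, and says nothing about binding.

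No difference between the groups was detected for any of the 9 transporters. With edgeR, 0 of 9 passed an adjusted p of 0.05, beside 0 of all 12883 genes (0%), and 0 of 9 had an unadjusted p under 0.05, beside 225 of all genes (1.75%). The 4 saline and 4 4-HPAA values overlapped for every member. They did not overlap for 154 of all genes tested (1.2%), a share at which 0 of 9 is the usual outcome. DESeq2 called 2 of the 12883 genes (0.0155%) and limma-voom 0, and no member was called by either. The paper, which also used DESeq2, reports more differentially expressed genes between these groups. Why the numbers differ was not tested. Log2 fold changes were above 0 in 7 members and below 0 in 2, beside 50.4% of all genes above 0, with a median of 0.05 against 0.0007 over all genes. The intervals bound what could have been missed. For 8 of the 9 genes the 95% interval lay within a 2-fold change in either direction, Slc22a7 being the exception, and for 6 it lay within 0.5 on the log2 scale. These intervals are for each gene alone and are not adjusted for the number of genes. Without NS replicates 1 and 4 and 4-HPAA replicate 4, which leaves 2 saline and 3 4-HPAA livers, 0 of the 9 and 0 of all genes passed. The log2 fold changes were then 0.43 for Abcb1a (standard error 0.23, edgeR unadjusted p = 0.0976), 0.11 for Abcc2, 0.05 for Slco2b1, 0.02 for Slc16a1, -0.04 for Abcg2, -0.05 for Slco1a4, -0.06 for Slco1b2, -0.07 for Slco1a1 and -0.09 for Slc22a7.

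**Figure D1:**
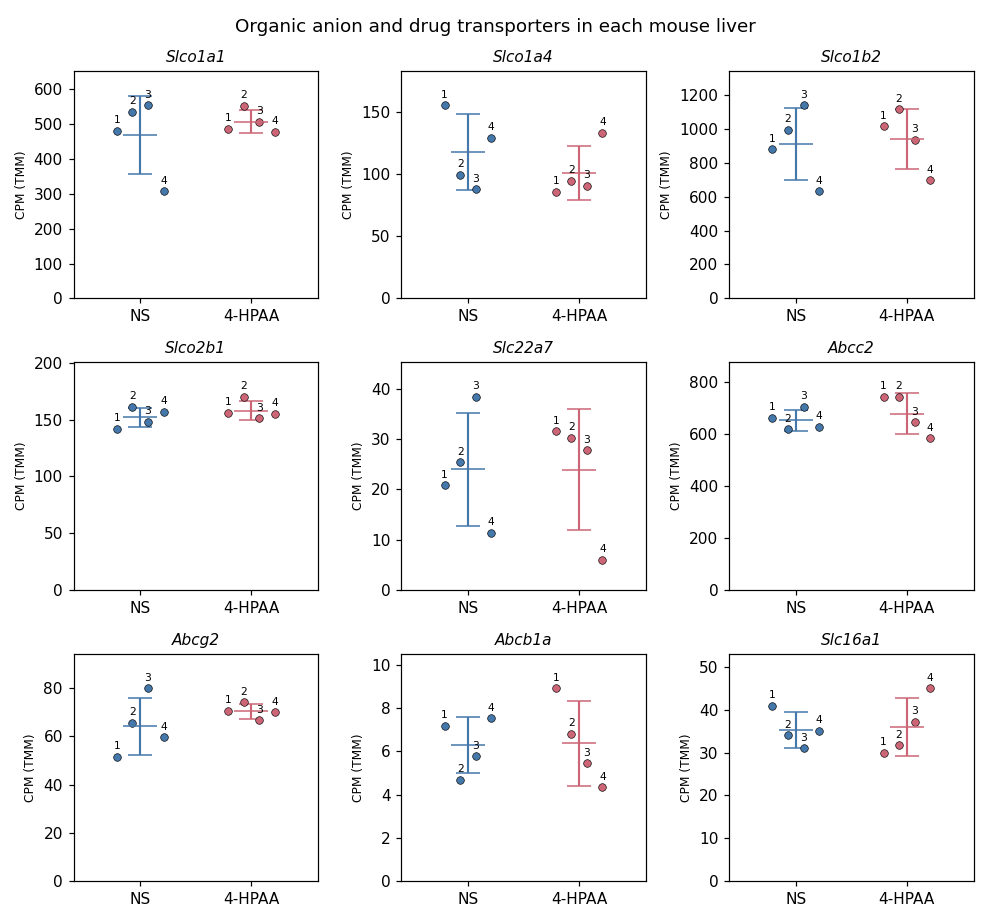
TMM-normalized CPM of the 9 transporters in the NS and 4-HPAA livers, one panel a gene, each axis starting at 0; points are single mice with their replicate number, bars the mean and SD of 4. The groups overlap in every panel, NS replicate 4 and 4-HPAA replicate 4 are lowest for Slco1b2 and Slc22a7, and NS replicates 1 and 4 and 4-HPAA replicate 4 are highest for Slco1a4.

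Among the uptake carriers, Slco1b2 encodes the main hepatic organic anion transporting polypeptide of the mouse, which takes up bilirubin conjugates, bile acids and statins. The gene (ENSMUSG00000030236, chr6:141629518-141686646, GRCm38) read 879, 993, 1137 and 631 CPM in NS replicates 1 to 4 and 1014, 1114, 935 and 696 CPM in the 4-HPAA livers. The lowest value of each group was its replicate 4, and the 2 means, 909.7 ± 214 and 939.6 ± 178 CPM (SD, n = 4), differed by far less than the spread. The log2 fold change was 0.05 (standard error 0.19, 95% interval -0.38 to 0.48, edgeR adjusted p = 1.00).

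Slco1a1, a carrier of steroid sulfates and bile acids that is known to be higher in male liver, lies on the same chromosome (ENSMUSG00000041698, chr6:141907282-141946962). Its saline values were 481, 536, 554 and 308 CPM and its 4-HPAA values 487, 553, 508 and 479 CPM. A single liver, NS replicate 4, lay clearly below the rest, and the other 7 were between 479 and 554 CPM. The log2 fold change was 0.11 (standard error 0.17, interval -0.26 to 0.48, edgeR adjusted p = 1.00), and it was -0.05 without NS replicate 4.

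Slco1a4, known for the uptake of digoxin and conjugated steroids, lies between these genes (ENSMUSG00000030237, chr6:141805440-141856199) and ordered the livers differently. It read 155, 99.1, 87.6 and 129 CPM with saline and 85.8, 94.4, 90.4 and 133 CPM with 4-HPAA. The 3 highest livers were NS replicate 1, 4-HPAA replicate 4 and NS replicate 4, the same that were low in Mup7, and the remaining 5 lay between 85.8 and 99.1 CPM. Its log2 fold change, -0.22 (standard error 0.19, interval -0.65 to 0.21, edgeR adjusted p = 1.00), was the furthest from 0 of the 9. The value was -0.06 without NS replicate 1, -0.39 without 4-HPAA replicate 4 and -0.05 without all 3. These 3 were the highest livers of this gene and were left out together after the data were seen. The last value thus shows only that the remaining 5 livers were alike. Without NS replicate 2 and 4-HPAA replicate 4, the livers richest in red blood cell genes, the log2 fold change was -0.47 (edgeR unadjusted p = 0.0376). The part of Mup7, the female-biased genes and red blood cell RNA in these differences was not tested.

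Per unit of transcript length, Slco1a1 stood at 2.22 and 1.81 times Slco1a4 in NS replicates 1 and 4 and at 2.61 times in 4-HPAA replicate 4. In the other 5 livers the ratio was 3.73 to 4.28. Slco1a1 and Slco1a4 belong to a cluster of related genes, and 4% and 5.03% of their 31-base words also occur in transcripts of other genes, mostly of each other or of Slco1a5, so a small part of their reads could be split between them. Slco1a5 itself held at most 0.0321 CPM and Slco1a6 at most 1.31 CPM.

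Slco2b1, a pH-sensitive carrier of sulfated steroids and statins (ENSMUSG00000030737, chr7:99657804-99711340), was the steadiest of the 9. It read 142, 161, 148 and 157 CPM with saline and 156, 169.9, 151 and 155 CPM with 4-HPAA. No liver stood out, including the 3 that were apart for Slco1a4. The spread within groups was 0.08 on the log2 scale, smaller than in all but 6.43% of genes tested, and the log2 fold change of 0.06 (standard error 0.07, interval -0.11 to 0.22, edgeR adjusted p = 1.00) was accordingly the most tightly bounded.

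Slc22a7 encodes the organic anion transporter OAT2, which carries small anions such as nucleotides and salicylate (ENSMUSG00000067144, chr17:46432183-46438457). It was the most variable: 20.8, 25.4, 38.4 and 11.4 CPM with saline and 31.6, 30.3, 27.8 and 5.95 CPM with 4-HPAA. Replicate 4 was lowest in both groups, and 4-HPAA replicate 4 lay far below the rest of its group. The within-group spread of 0.97 on the log2 scale exceeded that of 99.3% of genes tested. Its log2 fold change was -0.003 (standard error 0.47), and the interval of -1.06 to 1.06 leaves changes of up to 2.08-fold unresolved. Without 4-HPAA replicate 4 the value was 0.32 (standard error 0.31). It was also 0.32 without NS replicate 3, at a standard error of 0.49, and -0.24 without NS replicate 4, and without the 3 livers that stood apart it was -0.09 (standard error 0.17).

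Slc16a1 encodes the monocarboxylate carrier MCT1, which moves lactate, pyruvate and ketone bodies with a proton (ENSMUSG00000032902, chr3:104638668-104658462). It read 40.9, 34, 31 and 35 CPM with saline and 30, 31.7, 37.1 and 44.9 CPM with 4-HPAA. The highest values were again those of NS replicate 1 and 4-HPAA replicate 4, with all saline values inside the range of the 4-HPAA group. The log2 fold change was 0.03 (standard error 0.13, interval -0.27 to 0.33, edgeR adjusted p = 1.00).

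Of the canalicular pumps, Abcc2 encodes MRP2, the exporter of glucuronide and glutathione conjugates into bile (ENSMUSG00000025194, chr19:43782192-43840740). Its values were 661, 617, 705 and 627 CPM with saline and 742, 742, 644 and 583 CPM with 4-HPAA. The 2 highest and the lowest liver were all in the 4-HPAA group, around means of 652 ± 39.6 and 678 ± 78.2 CPM (SD, n = 4). The log2 fold change was 0.05 (standard error 0.10, interval -0.17 to 0.28, edgeR adjusted p = 1.00).

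Abcg2 encodes BCRP, which exports sulfate conjugates and many drugs (ENSMUSG00000029802, chr6:58584523-58695676). It read 51.6, 65.5, 79.7 and 59.5 CPM with saline and 70.4, 74, 66.6 and 69.8 CPM with 4-HPAA. Saline livers spanned both the lowest and the highest value, and all 4-HPAA livers lay between them. Its log2 fold change of 0.13 (standard error 0.12, interval -0.14 to 0.40, edgeR adjusted p = 1.00) was the highest of the 9. It was 0.25 without NS replicate 3, 0.04 without NS replicate 1, and -0.04 without the 3 livers that stood apart.

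Abcb1a encodes a P-glycoprotein that exports lipophilic drugs (ENSMUSG00000040584, chr5:8660077-8748575), and was the scarcest member. It read 7.18, 4.7, 5.77 and 7.52 CPM with saline and 8.9, 6.8, 5.44 and 4.34 CPM with 4-HPAA. Both the highest and the lowest liver had received 4-HPAA. The log2 fold change was 0.02 (standard error 0.23, interval -0.49 to 0.53, edgeR adjusted p = 1.00), and without the 3 livers that stood apart it was 0.43. Of its 31-base words 23.3% occur in other genes, 1186 of the 1274 shared words in the paralog Abcb1b, so its counts are uncertain; Abcb1b was at 1.08 to 1.92 CPM, and summing both genes gave a log2 fold change of -0.04.

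**Figure D2:**
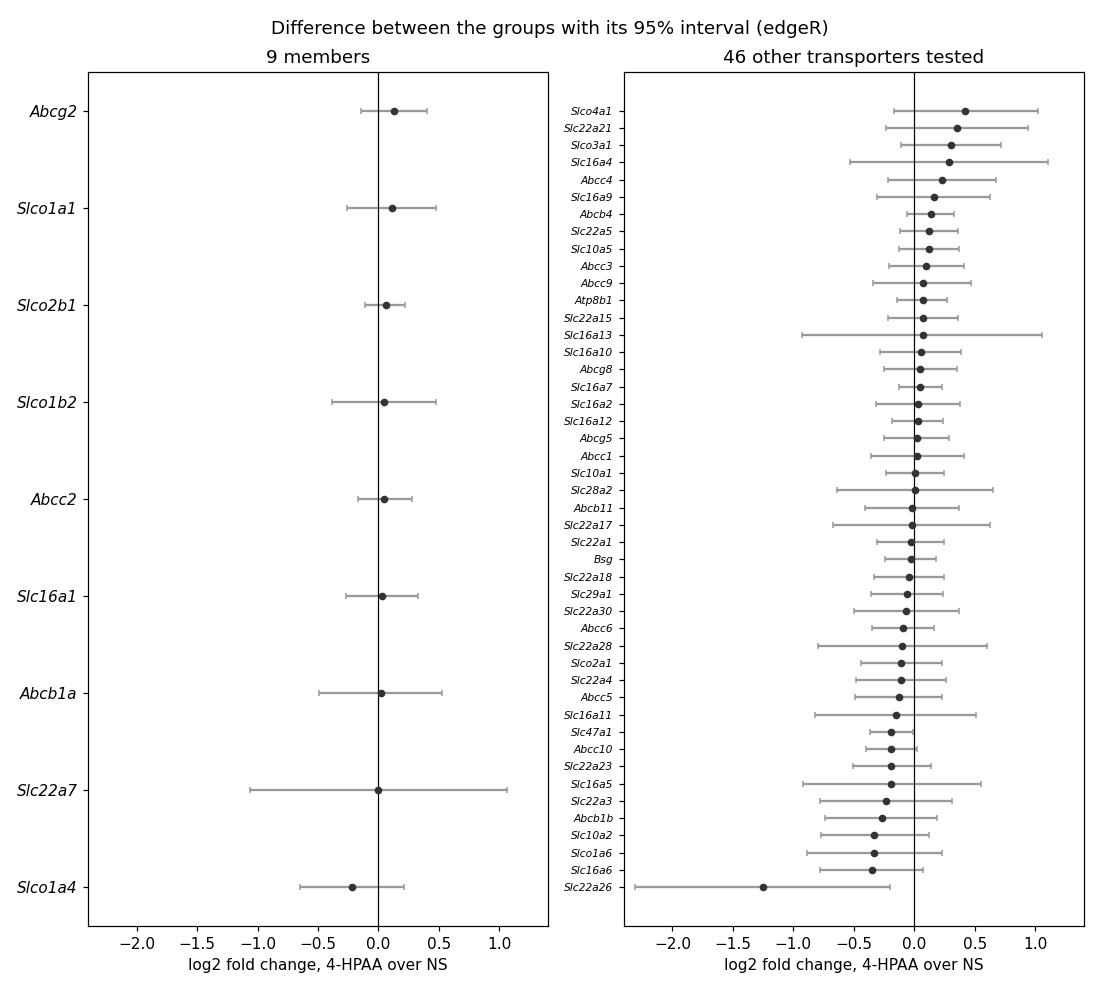
Log2 fold change of 4-HPAA over NS with its 95% interval from edgeR for the 9 members (left) and for the 46 other transporter genes tested (right), on the same horizontal scale. All 9 member intervals include 0, and the interval of Slc22a7 is the widest among them, from -1.06 to 1.06.

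Some members varied together across the livers. Slco1b2 and Slco1a1 moved in parallel over the 8 livers (Pearson r = 0.83, exact permutation p = 0.000794, Benjamini-Hochberg adjusted over 36 pairs of members 0.0286; Spearman rho = 0.93, exact permutation p = 0.00223, adjusted 0.0402). Without the 2 livers furthest from the median of Slco1a1, NS replicates 3 and 4, r was 0.72. Slco1b2 and Slc22a7 also moved in parallel (r = 0.90, exact permutation p = 0.00595, adjusted 0.107; rho = 0.93, exact permutation p = 0.00223, adjusted 0.0402), with r = 0.87 without NS replicate 4 and 4-HPAA replicate 4. The other 34 pairs did not pass the adjustment by either measure. The 3 livers that stood apart were the 3 lowest in Slco1b2, Slco1a1 and Slc22a7, and r without all 3 was not computed. These p-values therefore cannot tell a split between those 3 livers and the rest from a gradual joint variation.

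For Slco1a4 the livers formed separate sets, 3 at 129 to 155 CPM and 5 at 85.8 to 99.1 CPM. No coefficient with another member over all 8 is therefore given for it, and both sets are too small for one of their own. The 3 livers that were high in Slco1a4 were the 3 lowest in Slc22a7, at 5.95 to 20.8 CPM against 25.4 to 38.4 CPM, and in Slco1b2, at 631 to 879 CPM against 935 to 1137 CPM. They were also the lowest in Slco1a1, by a small margin in 2 of them.

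**Figure D3:**
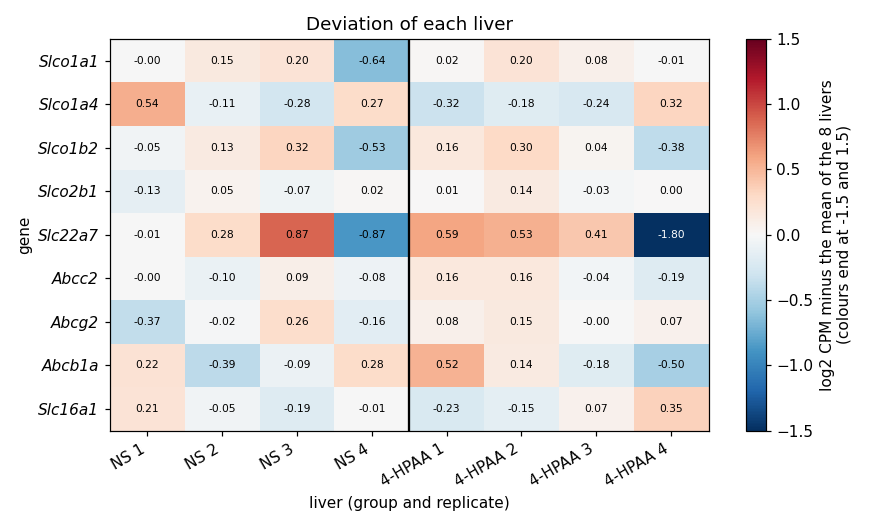
Log2 CPM of each transporter minus its mean over the 8 livers, NS left and 4-HPAA right of the line, red above and blue below the mean. Replicate 4 of both groups is below the mean for Slco1b2 (-0.53 and -0.38) and Slc22a7 (-0.87 and -1.80) and above it for Slco1a4 (0.27 and 0.32); Slco2b1 stays between -0.13 and 0.14.

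Other genes were searched for the same deviations from the group means. Over the 8 livers and the genes with a mean of at least 10 CPM (7383 besides the member), the gene whose deviations from the group means followed Slco1b2 best was Prr16 (r = 0.99). For Slc22a7 it was Smarcc2 (0.99), for Slco1a1 Ptdss1 (0.99), for Slco1a4 Pes1 (0.98), for Slc16a1 Hadha (0.99) and for Abcg2 Usp4 (0.98). For Abcb1a, Abcc2 and Slco2b1 it was Ip6k2 (0.98), Myrf (0.97) and Vps39 (0.96). With the group difference left in, r of log2 CPM was lower for some, at 0.80 for Ptdss1, 0.76 for Myrf, 0.72 for Vps39 and 0.71 for Usp4, and 0.87 to 0.99 for the other 5. Each is the best of all these genes over only 8 livers that share the same library scaling, and is a description. That of Slco1a4 rests on its separate sets of livers: Pes1 was at 27.1, 26 and 25.9 CPM in NS replicates 1 and 4 and 4-HPAA replicate 4, and at 23.1 to 24 CPM in the rest.

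Ranked per transcript length (estimated counts over annotated length, scaled to the same total in every library, TPM), the carriers spanned a wide range. In saline livers Slco1b2 led at 468 ± 108, followed by Slco1a1 at 215 ± 52.7 and Abcc2 at 175 ± 12.6 (SD, n = 4). Slco1a4 (75.2 ± 20), Slco2b1 (73.7 ± 2.19) and Abcg2 (49.2 ± 9.59) formed the middle. Slc22a7 (20 ± 9.4) and Slc16a1 (13.1 ± 1.84) were lower, and Abcb1a (2.27 ± 0.679) was lowest. The ranges over all 8 livers overlapped for the neighbours Slco1a1 and Abcc2, for Slco1a4 and Slco2b1, and for Slc22a7 and Slc16a1, and did not overlap for the other 5 neighbouring pairs. With 4-HPAA, Slco1b2 stood at 477 ± 98.4, Abcc2 at 172 ± 17.2 and Abcb1a at 2.27 ± 0.724, and Slco2b1, at 78.3 ± 9.07, changed places with Slco1a4, at 66.3 ± 12.

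**Figure D4:**
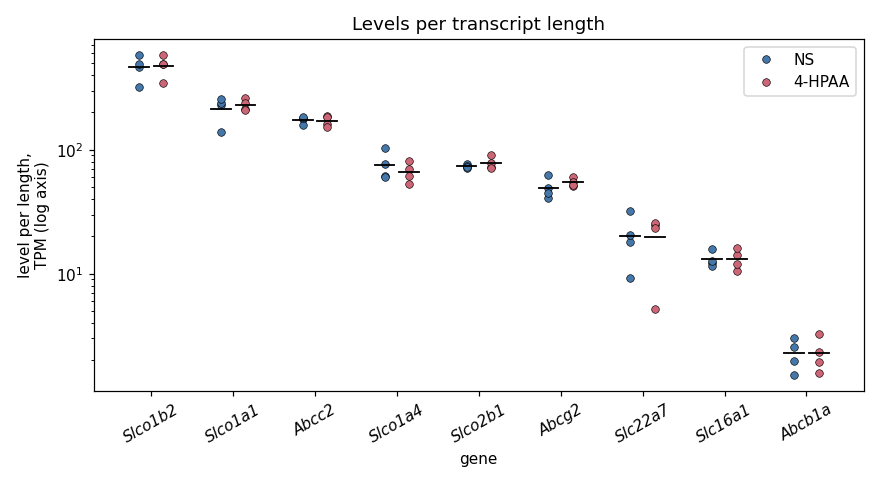
Level of each transporter per transcript length, in TPM on a log axis, in NS (blue) and 4-HPAA (red) livers; points are single mice and lines the mean of 4. Slco1b2 leads (mean 468 in NS) and Abcb1a is lowest (2.27), and the groups lie over each other for every gene.

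The deposited values are per transcript, so the members could also be read isoform by isoform. Of 46 transcripts annotated for the 9 genes, 5 were at 0 in every library and 26 had at least 10 counts in each. Of these 26, 0 passed edgeR's adjusted p of 0.05 and 0 had an unadjusted p under 0.05, beside 979 of the 25533 transcripts tested (3.83%). The lowest unadjusted p was that of Abcg2-206, a transcript annotated as subject to nonsense-mediated decay (log2 fold change 0.90, edgeR unadjusted p = 0.0783, adjusted p = 1.00).

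Most members relied on a single transcript. Slc16a1-201 carried all counts of Slc16a1, and Slco1b2-201 carried 98.9% ± 0.301 of its gene with saline and 99.2% ± 0.242 with 4-HPAA (SD, n = 4). Abcc2-201 carried 94.8% and 95.7%, although Abcc2-202, a transcript of 1 exon that lies wholly within the end of Abcc2-201, took from 0 to 1373 estimated counts; every 31-base word of Abcc2-202 is shared with other Abcc2 transcripts. Slco1a1 was divided between Slco1a1-201, at 53.4% ± 3.11 and 56% ± 5.54, and Slco1a1-202, which took most of the rest. Of their 31-base words 94.8% and 82.2% are shared with other Slco1a1 transcripts, so this division is an estimate. Slco1a4-203 took 84.3% ± 4.9 with saline and 78.3% ± 7.21 with 4-HPAA. The share of Abcb1a-201 was 91.1% ± 11.3 and 89% ± 9.09.

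For the 8 genes with several transcripts, no difference between groups was detected in the share of the leading one. The smallest p was that of Slco1b2-201 (exact permutation test, two-sided, p = 0.171, adjusted over 8 genes 0.571), where 4 against 4 livers cannot give less than 0.0286. The largest difference of means was that of Slco1a4-203, -6.09 percentage points (exact permutation p = 0.229, adjusted 0.571). Slc22a7-201 carried between 98% and 100% of its gene in 7 livers and 79.6% in 4-HPAA replicate 4, the liver with the fewest counts of this gene, 170.

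**Figure D5:**
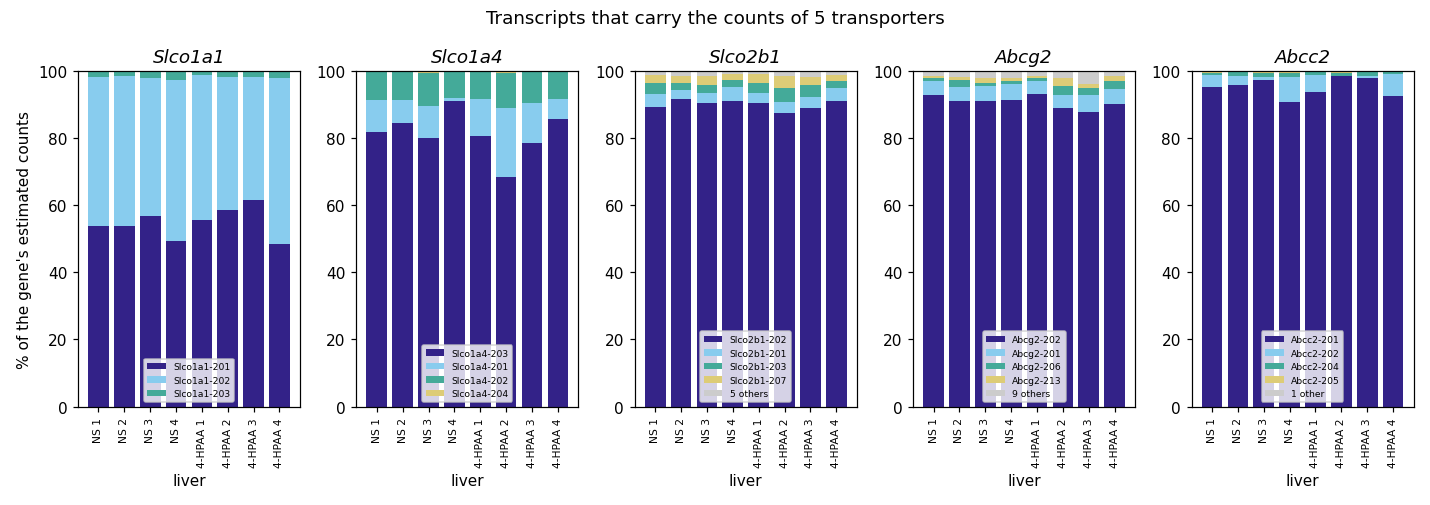
Share of a gene's estimated counts taken by each of its transcripts (% of the gene, stacked to 100) in the 8 livers for 5 transporters. Slco1a1 is divided between 2 transcripts, with Slco1a1-201 at 48.6% to 61.5%, while Slco2b1-202, Abcg2-202 and Abcc2-201 take most of their gene in every liver.

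The transcript estimates also placed the starts in use. In Abcg2, transcripts that begin within 500 bases of the most downstream of 3 RefSeq starts (position 58640546) carried 94.4% ± 0.707 of the gene's counts with saline and 94.4% ± 0.67 with 4-HPAA. The middle start carried 4.32% and 4.38%, and the upstream one 0.114% and 0.0988%. Slco2b1 showed the same preference: the most downstream of 3 starts (position 99695809) held 93.9% ± 1.21 with saline and 93.3% ± 0.804 with 4-HPAA, against 3.4% and 3.3% for the upstream start and 2.48% and 3.13% for the middle one. These downstream starts are those whose windows are printed above. The split rests on how the authors' pseudo-alignment divided reads among transcripts. Of the 31-base words of Abcg2-202 100% and of those of Slco2b1-202 94.8% also occur in other transcripts of the same gene, some of which begin at the same start. These shares are thus estimates and not counts of reads particular to a start.

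The wider transporter families were read in the same way. Of 74 other genes of the organic anion, Slc22, monocarboxylate, ABC and hepatic bile salt and cation families, 46 were tested. By sign, 23 were higher and 23 lower, with a median log2 fold change of -0.01, and 0 passed edgeR's adjusted p of 0.05, beside 2 (4.35%) with an unadjusted p under 0.05, against 1.75% of all genes, and 1 (2.17%) with groups that did not overlap, against 1.2%. The gene of the latter was Slc47a1, the proton-coupled exporter of organic cations (MATE1), at 119.6, 113, 113 and 139 CPM with saline and 109, 107, 103 and 106 CPM with 4-HPAA. Its log2 fold change was -0.19 (standard error 0.08, edgeR unadjusted p = 0.0438, adjusted p = 1.00), and -0.08 without the 3 livers that stood apart. The other with an unadjusted p under 0.05 was Slc22a26, at 4.39, 2.13, 1.15 and 4.43 CPM against 2.23, 1.2, 1 and 0.63 CPM (log2 fold change -1.25, standard error 0.47, unadjusted p = 0.0248, adjusted p = 1.00); its highest values were in NS replicates 1 and 4, but 4-HPAA replicate 4 was lowest. Without these 3 livers its log2 fold change was -0.15 (standard error 0.41, unadjusted p = 0.73).

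By family, 2 of 4 tested Slco genes, 3 of 12 Slc22 genes, 7 of 11 monocarboxylate genes, 7 of 12 ABC genes and 4 of 7 bile salt and cation carriers had log2 fold changes above 0. Those with the smallest p in each family included Slco3a1 (0.30) and Slco4a1 (0.42), Slc22a21 (0.35), Slc16a6 (-0.35) and Slc16a4 (0.29). Among the ABC genes they were Abcc10 (-0.19) and Abcb4 (0.14), the latter the phospholipid floppase of the canaliculus, and among the remaining carriers Slc10a2 (-0.33), a bile salt carrier best known from ileum. None passed the adjustment. Without the 3 livers that stood apart the values were 0.44 for Slco3a1, 0.92 for Slco4a1 (edgeR unadjusted p = 0.0139, adjusted p = 1), 0.20 for Slc22a21, -0.37 for Slc16a6, 0.15 for Slc16a4, -0.13 for Abcc10, 0.08 for Abcb4 and -0.24 for Slc10a2.

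Proteins that hold transporters at the membrane gave 6 of 8 genes above 0 and 0 that passed, with Pdzk1, a scaffold of several organic anion carriers, at -0.10 and Slc9a3r2 at 0.11. Of 20 nuclear receptors and other factors known to control hepatic transporter genes, 7 (35%, beside 50.4% of all genes) were above 0 and 13 below, and 0 passed, with 2 (10%, beside 1.75% of all genes) at an unadjusted p under 0.05. Foxa2, a hepatocyte factor, read 12.4, 19.1, 11.9 and 16.4 CPM with saline and 22.2, 12, 32.6 and 25.4 CPM with 4-HPAA, with overlapping groups (log2 fold change 0.63, standard error 0.27, edgeR unadjusted p = 0.0432, adjusted p = 1.00); it was 0.41 without 4-HPAA replicate 3 and 0.53 without the 3 livers that stood apart. Cux2, a repressor known to be female-specific in liver, read 14.1 and 6.15 CPM in NS replicates 1 and 4 and 2.03 to 3.04 CPM in the other 6 livers (log2 fold change -1.21, standard error 0.54, unadjusted p = 0.0499, adjusted p = 1.00), and without the 3 livers that stood apart its log2 fold change was 0.37. Of 16 tested targets of the xenobiotic receptors, NRF2 and PPAR alpha, 10 were above 0 and 0 passed, among them Cyp3a11 (0.25) and Cyp2b10 (-0.50), textbook targets of PXR and CAR, which were at 0.23 and 0.37 without the 3 livers.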

How the data were processed

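Paired-end reads of polyA-selected liver RNA were joined over flow cells and pseudo-aligned by the authors with kallisto (quality was checked with FastQC 0.11.9). Estimated counts per transcript were deposited, neither normalized nor pooled over samples. Of these values 9.85% were whole to within 1e-06. The build named is GRCm38.p6. All 119414 transcripts were looked up in GENCODE release M21; 116728 matched, to 35975 genes, and the unmatched 2686 held 0.703% to 1.06% of counts. Estimated counts were summed per gene and rounded. Genes reaching 10 counts in all 8 libraries entered edgeR 4.0.16 (R 4.3.3) with TMM scaling, the quasi-likelihood F test, Benjamini-Hochberg adjustment and a threshold of 0.05, without covariates. Alternatives used DESeq2 1.42.0, limma-voom (limma 3.58.1), other scalings and filters, libraries left out, a replicate block, protein coding transcripts and summed paralogs. The steps were tested on simulated data. Besides the 9 members, the genes named are the 2 of each list with the smallest p, the Y chromosome genes and the gene most like each member, while Mup7, Cyp7b1, Slco1a5, Slco1a6, Abcb1b, Pnlip, Prss2, Slc16a5, Onecut1, Slc10a1 and Abcb11 were named after their values were seen. Members and lists were chosen with earlier results of these data known. Log2 CPM used a prior count of 2. Depth, at 29559978 to 30673398 counts, limited only genes near the filter.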

Additional observations from a re-analysis of the deposited data

Results flagged for a closer look

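A sample was set apart where its gap to the nearest of the other 3 was a larger share of its group's range than Dixon's 95% limit for 4 values. Of 84 groups of values examined, 7 did so, where chance alone gives about 1 in 20, or 4.2. Slc22a7 was at 5.95 CPM in 4-HPAA replicate 4, against 27.8 to 31.6 CPM in the rest of its group, a gap of 0.853 of the range. The share of Slc22a7-201 was 79.6% in the same liver, against 100% in the rest of its group, and 100% in NS replicate 4, against 98% to 98.2%. Cyp2b10, a target of CAR, was at 33 CPM in NS replicate 1, against 8.4 to 11.9 CPM. Cyp2d9, which is higher in male liver, was at 1014 CPM in 4-HPAA replicate 4, against 1177 to 1209 CPM. Cyp2a4, which is higher in female liver, was at 275 CPM in NS replicate 4, against 0.558 to 28.2 CPM, and at 32.3 CPM in 4-HPAA replicate 4, against 0.8 to 3.56 CPM. All 7 values belong to NS replicates 1 and 4 and 4-HPAA replicate 4.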

How the results depend on the processing

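Over 870 recomputed values, 810 kept their direction and their side of the threshold, 55 changed direction, 5 moved, and none crossed the threshold for a member. Without NS replicate 2 and 4-HPAA replicate 4, the globin-rich livers, the log2 fold change was -0.47 for Slco1a4 (unadjusted p = 0.0376), 0.34 for Slc22a7, -0.12 for Slc16a1 and -0.04 for Slc16a4. Chosen after seeing the data, leaving out both replicates 4 gave -0.02 for Slco1a1, 0.09 for Slc22a7 and -0.10 for Slc16a1, and leaving out NS replicate 1 as well gave 0.43 for Abcb1a, -0.15 for Slc22a26, 0.92 for Slco4a1, -0.07 for Slco1a1, -0.06 for Slco1b2, -0.04 for Abcg2, 0.37 for Cux2, 0.37 for Cyp2b10, -0.03 for Cyp2d9, -0.05 for Mup20 and 1.44 for Cyp2a4. Abcb1a was at -0.01 with limma-voom and with protein coding transcripts only, where Slc22a21 was at -0.06. Summing paralogs gave 0.05 for Slco1a4, which Slco1a1 then outweighed, and -0.04 for Abcb1a. With each library left out in turn, values ranged from -0.05 to 0.20 (Slco1a1), -0.39 to -0.06 (Slco1a4), -0.09 to 0.17 (Slco1b2), -0.24 to 0.32 (Slc22a7), -0.19 to 0.15 (Abcb1a), -0.10 to 0.11 (Slc16a1), -0.71 to 0.13 (Cyp2b10), -0.0003 to 0.30 (Slco1a1-201), -0.09 to 0.12 (Slco1a1-202), -0.08 to 0.18 (Slco1b2-201), -0.09 to 0.12 (Slc16a1-201), -0.11 to 0.17 (Abcb1a-201) and -0.22 to 0.35 (Slc22a7-201), and in percentage points of share from -5.35 to 1.44 (Slc22a7-201), -0.368 to 2.01 (Abcc2-201) and -7.62 to 1.02 (Abcb1a-201). The number of genes called was 0 or 1 in these, the 1 without 4-HPAA replicate 1, and 2 with DESeq2. The smallest unadjusted p of a member was 0.0263 (edgeR, Abcg2 at 0.25 without NS replicate 3), with adjusted p-values of 0.999 or more for all members in all settings. Same-numbered livers deviated together with r of 0.0398, 0.168, 0.268 and 0.48, and the other pairs with r of -0.477 to 0.466. Such values cannot show whether equal numbers mark paired mice, and the labels do not say. The replicate block called 0 genes and gave -0.002 for Abcb1a, -0.02 for Abcb1a-201 and -0.16 for Slc22a7-201, and not every liver correlated best with its own number. With the block the standard error was 0.23 instead of 0.47 for Slc22a7, 0.10 instead of 0.19 for Slco1b2 and unchanged at 0.10 for Abcc2. Levels per length with 200 bases taken off each transcript were lower, at 66.1 for Slco2b1, 155 for Abcc2 and 10.8 for Slc16a1 with saline. The cause of the shifts in fold change, share and standard error was not tested.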

Other observations

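Slc16a5, a monocarboxylate carrier gene on chromosome 11, was chosen here after its values were seen, because it ordered the livers as Slco1a4 did. It read 34, 35.8 and 32.9 CPM in NS replicates 1 and 4 and 4-HPAA replicate 4, and 13.2 to 19.1 CPM in the other 5 livers. Between the groups its log2 fold change was -0.19 (standard error 0.33, edgeR adjusted p = 1.00). The hepatocyte factor Onecut1, likewise chosen after its values were seen, spanned 12.9 to 137 CPM over the 8 livers. It was lowest in NS replicates 1 and 4, at 16.3 and 12.9 CPM, and highest in NS replicate 2 and 4-HPAA replicate 3, at 137 and 134 CPM. Slc10a1 and Abcb11, the main bile salt carriers of the sinusoidal and canalicular membranes, were also chosen after their values were seen. Slc10a1 was highest in NS replicate 1 and 4-HPAA replicate 4, at 611 and 605 CPM, with the other 6 livers at 479 to 557 CPM (log2 fold change 0.01, standard error 0.11, edgeR adjusted p = 1.00). Abcb11 was lowest in the same 2 livers, at 232 and 264 CPM, with the other 6 at 287 to 387 CPM (log2 fold change -0.02, standard error 0.17, edgeR adjusted p = 1.00).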
